A study of Mus musculus with 8 samples.

Results

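The Id family (inhibitor of DNA binding, or inhibitor of differentiation) comprised Id1, Id2, Id3 and Id4. These 4 genes were chosen by name from the 22609 gene symbols of the count table, and all 4 had reads in each of the 8 libraries. Total RNA was sequenced from immortalized mouse dental papilla cells, the mesenchymal cells from which odontoblasts arise. The iBmp2 fx/fx cells (labelled Bmp2 floxed/floxed) carry Bmp2 alleles flanked by recombination sites, and the iBmp2 ko/ko cells (labelled Bmp2 KO) carry the deletion. Each genotype was harvested at 6, 24, 48 and 72 h of culture, with 1 library per genotype and time, so that the culture times served as the replicates of a genotype. Each genotype was an immortalized line, and the sources used here do not say that libraries came from independent lines. The spread between libraries is therefore that between harvests of a line. A property of the line cannot be told apart from the loss of Bmp2.

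Id proteins are helix-loop-helix proteins without the basic region that contacts DNA. They pair with E proteins (Tcf3, Tcf4 and Tcf12 in the mouse) and keep these and their tissue-specific partners from binding E-box sequences. Bone morphogenetic proteins bind type I and type II receptors, which phosphorylate Smad1, Smad5 and Smad9, and these enter the nucleus with Smad4. The Id genes are among the classic direct targets of these Smads, and their transcripts are widely used as a readout of BMP signaling in mesenchymal cells.

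Between 25890110 and 32415665 counts per library fell on genes, and 3 counts corresponded to 0.0925 to 0.116 CPM (counts scaled to the size of the library, here with TMM factors). The targeted gene gave no check of the labels, because Bmp2 had 1 read in the fx/fx library of 24 h and 0 in the other 7 libraries. The library labelled ko/ko of 24 h stood apart. Of the 291 genes called between genotypes over the libraries of 6, 48 and 72 h, it lay nearer to the ko/ko mean than to the fx/fx mean for 3 genes. Its expression thus went against its label at nearly all genes that separated the genotypes, and since Bmp2 reads could not check that label, the label is in doubt and values at 24 h are those of a library labelled ko/ko. The study's methods list harvests at 6, 48 and 72 h and do not say which libraries were compared. The genotype comparison below therefore rests on 6 libraries, 3 per genotype, and the libraries of 24 h are given apart. Dental mesenchyme markers were present (14 of 16 passed the filter on low counts), with a summed level of 7907 to 9301 CPM in fx/fx and 10210 to 13850 CPM in ko/ko libraries. That sum was carried by Vim, Col1a1 and Col1a2, whereas 9 of the 14 tested markers had a log2 difference below 0 (list median -0.33). The tooth transcription factors Barx1 and Lhx8 had at most 1 count in any library, as did Dspp, the defining gene of mature odontoblasts. Markers of other cell types were low, with the dental epithelium list at 1.18 to 1.84 CPM in fx/fx and 0.922 to 1.96 CPM in ko/ko and the endothelium list at 1.99 to 3.31 and 1.56 to 3.63 CPM. The immune list reached 27.95 to 44.4 and 26.2 to 45.2 CPM, mostly from Cd14, while Ptprc and Itgam had at most 3 counts in any library. The macrophage genes Cd68 (6.90 ± 4.79 CPM in fx/fx and 2.53 ± 0.293 CPM in ko/ko, SD, n = 3) and Csf1r (1.31 ± 0.477 and 0.419 ± 0.176 CPM) were lower in ko/ko cells by the study's limit and with the replicate block described below, and the list median was -1.43. No marker was past the adjusted limit in edgeR over the 6 libraries without a block. With the block the dental mesenchyme list had 5 called lower and 3 higher, the odontoblast list 1 lower, the immune list 2 lower, and the dental epithelium and endothelium lists 1 lower and 1 higher each, while 11.4% of all genes were lower and 11.3% higher. The part of these markers in the Id differences was not tested. Fewer cells expressing a gene and less transcript per cell cannot be told apart in these bulk libraries.

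The 4 genes lie on different chromosomes of mm9. In the GENCODE M1 annotation Id1 spans 152561987 to 152563146 of chromosome 2 (plus strand, 1160 exonic bases), and Id2 spans 25778666 to 25780957 of chromosome 12 (minus strand, 1270 exonic bases). Id3 spans 135699412 to 135701670 of chromosome 4 (plus strand, 1791 exonic bases), and Id4 spans 48356796 to 48359405 of chromosome 13 (plus strand, 1660 exonic bases). RefSeq promoter windows on GRCm38.p6, running from 250 bases before to 50 bases after the annotated start, were found for 3 of the 4 genes, and Id1 had no entry. The windows were chr12:25096043-25096342 (minus strand) for Id2, chr4:136143572-136143871 (plus strand) for Id3 and chr13:48260866-48261165 (plus strand) for Id4. They are shown because these genes carried the genotype difference described below, and capitals mark the GC-rich Smad motifs GGCGCC and GGCGCG on either strand (the latter reads CGCGCC on the printed strand when it lies on the other).
Id2: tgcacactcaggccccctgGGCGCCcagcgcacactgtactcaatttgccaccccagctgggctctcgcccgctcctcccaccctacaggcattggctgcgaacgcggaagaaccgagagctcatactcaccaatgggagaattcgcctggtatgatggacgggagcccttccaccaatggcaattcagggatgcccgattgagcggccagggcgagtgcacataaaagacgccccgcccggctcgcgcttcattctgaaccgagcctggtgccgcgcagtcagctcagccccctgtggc
Id3: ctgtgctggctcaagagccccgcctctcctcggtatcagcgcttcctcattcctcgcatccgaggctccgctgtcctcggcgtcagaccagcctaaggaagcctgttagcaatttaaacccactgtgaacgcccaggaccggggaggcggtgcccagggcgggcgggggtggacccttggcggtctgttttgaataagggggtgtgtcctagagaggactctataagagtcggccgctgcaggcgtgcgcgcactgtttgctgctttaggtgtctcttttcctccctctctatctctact
Id4: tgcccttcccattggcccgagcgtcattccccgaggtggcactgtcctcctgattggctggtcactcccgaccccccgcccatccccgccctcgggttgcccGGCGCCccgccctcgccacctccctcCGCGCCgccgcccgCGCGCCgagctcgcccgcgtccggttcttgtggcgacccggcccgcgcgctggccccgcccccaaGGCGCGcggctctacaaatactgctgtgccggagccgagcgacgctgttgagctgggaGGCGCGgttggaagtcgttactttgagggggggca

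The windows differed in these motifs. The Id4 window held GGCGCC at -148 and GGCGCG at 4 positions, beginning at -122, -108, -43 and 15 relative to the first transcribed base. The Id2 window held GGCGCC at -231 and no GGCGCG, and the Id3 window held neither. Of all 32851 windows of this length, 11.9% held GGCGCC and 19.2% held GGCGCG. The shorter Smad element GTCT, searched on both strands like the others, was found at 3 positions in the Id3 window, at 1 in the Id2 window and at none in the Id4 window, and 88% of all windows held it. An E-box (CANNTG) was found in the Id2 window, at -196, and in neither of the other windows, against 72.3% of all windows. GC content was 73.3% for Id4, 63.3% for Id2 and 60% for Id3, against a median of 52.7%. No binding was measured, and these matches are descriptions of sequence.

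The first comparison was of Id transcript levels between the labelled genotypes, both of which had 0 Bmp2 reads at 6, 48 and 72 h. In iBmp2 fx/fx cells Id3 was the most abundant member per exonic length, at 386 ± 55.6 RPKM (CPM per kilobase of exon, SD, n = 3). Id2 followed at 216 ± 24.6 RPKM and Id1 at 152 ± 31.6 RPKM, and the ranges of these neighbours did not overlap. Id4 was far lower, at 8.68 ± 2.99 RPKM. In iBmp2 ko/ko cells Id3 again led at 83.9 ± 57.1 RPKM, followed by Id1 at 34.0 ± 29.6 RPKM, Id2 at 26.1 ± 23.7 RPKM and Id4 at 0.736 ± 0.472 RPKM. The ranges of Id3, Id1 and Id2 overlapped in ko/ko cells. These values use the exon models of GENCODE M1, so the order between genes depends on those models while ratios between genotypes do not.

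Id1, which is known in many cell types as an early responder to BMP, stood at 145, 168 and 217 CPM at 6, 48 and 72 h in fx/fx cells and at 16.0, 23.4 and 78.8 CPM in ko/ko cells. The ko/ko libraries lay below every fx/fx library, and the nearest pair was the ko/ko library of 72 h and the fx/fx library of 6 h. The fx/fx level was 9.05, 7.17 and 2.75 times the ko/ko level at 6, 48 and 72 h.

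Id2, the member known for its role in lymphoid and mammary development, stood at 275, 243 and 305 CPM in fx/fx cells and at 15.01, 16.4 and 67.8 CPM in ko/ko cells. The groups did not overlap, and the ko/ko libraries of 6 and 48 h were close to each other while that of 72 h was higher. The ratio of fx/fx to ko/ko was 18.3, 14.8 and 4.502 at the 3 times.

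Id3, which overlaps in function with Id1 in the developing embryo, stood at 807, 633 and 636 CPM in fx/fx cells and at 87.9, 94.5 and 268 CPM in ko/ko cells. Again the ko/ko library of 72 h was the highest of its group and remained below the lowest fx/fx library. The ratio was 9.18, 6.70 and 2.37 at 6, 48 and 72 h.

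Id4, the member with a known role in neural progenitors and in spermatogonia, stood at 8.83, 16.0 and 18.4 CPM in fx/fx cells, from 283, 517 and 545 reads. In ko/ko cells it stood at 0.762, 0.777 and 2.13 CPM, from 23, 24 and 53 reads. The groups did not overlap, and the ratio was 11.6, 20.6 and 8.63, so that the counting error of the ko/ko values is larger than for the other members.

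**Figure D1:**
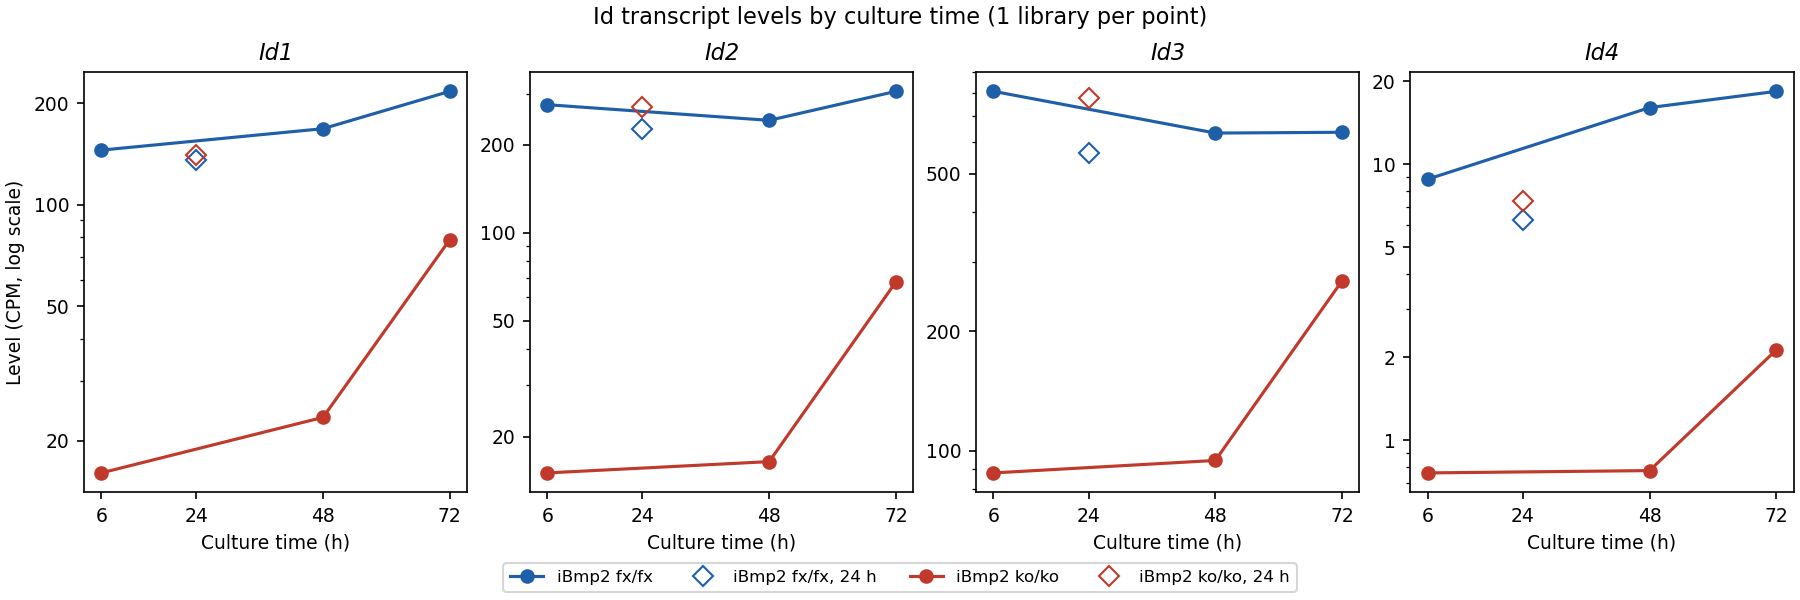
Levels of Id1 to Id4 in TMM-scaled CPM (vertical log axis, a different range in each panel) against culture time in hours, with 1 library per point, filled circles joined by lines for 6, 48 and 72 h and open diamonds for 24 h. At 6, 48 and 72 h the ko/ko points lie below the fx/fx points in all 4 panels, whereas at 24 h the diamond of the library labelled ko/ko lies above the fx/fx diamond.

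All 4 members were lower in ko/ko cells in the 6 libraries, without overlap between the groups, as were 11.0% of the 13121 genes tested. Id4 fell by 3.55 on the log2 scale (SE 0.518, 95% interval -4.77 to -2.33, an 11.7-fold difference), and its adjusted p was 0.0213 (quasi-likelihood test of edgeR, Benjamini-Hochberg over all genes tested). It was the single member past the adjusted limit of 0.05, which 2.22% of all genes passed and 1.30% passed in the lower direction. The log2 difference was -3.05 for Id2 (SE 0.604, interval -4.46 to -1.63, edgeR adjusted p = 0.0552), -2.20 for Id3 (SE 0.456, interval -3.27 to -1.13, adjusted p = 0.0648) and -2.16 for Id1 (SE 0.575, interval -3.50 to -0.805, adjusted p = 0.141). The study's methods give a limit of p under 0.05 and a log2 fold change beyond 1 in either direction. A figure legend of the study gives a Q value of at most 0.05 instead. With the p read as unadjusted (called the study's limit here), all 4 members were lower, as were 4.04% of the genes tested.

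The fx/fx and ko/ko libraries harvested at one time tended to deviate from their group means in the same direction. With culture time as a replicate block in the edgeR fit, all 4 members passed the adjusted limit. Id1 fell by 2.47 (adjusted p = 0.00199), Id2 fell by 3.40 (adjusted p = 0.0012), Id3 fell by 2.39 (adjusted p = 0.0034) and Id4 fell by 3.61 (adjusted p = 0.000305) on the log2 scale, while 22.7% of all genes passed this fit and 11.4% did so in the lower direction. Single libraries also moved the calls without a block. Without the ko/ko library of 72 h, Id1, Id2 and Id3 passed as well, with log2 differences of -3.16, -4.12 and -2.93. That fit called 383 genes in all (192 lower), against 291 (171 lower) over the 6 libraries. Id4 missed the limit without the ko/ko library of 6 h (-3.31), the fx/fx library of 48 h (-3.47) or the ko/ko library of 48 h (-3.31). These fits called 90, 14 and 9 genes in all.

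**Figure D2:**
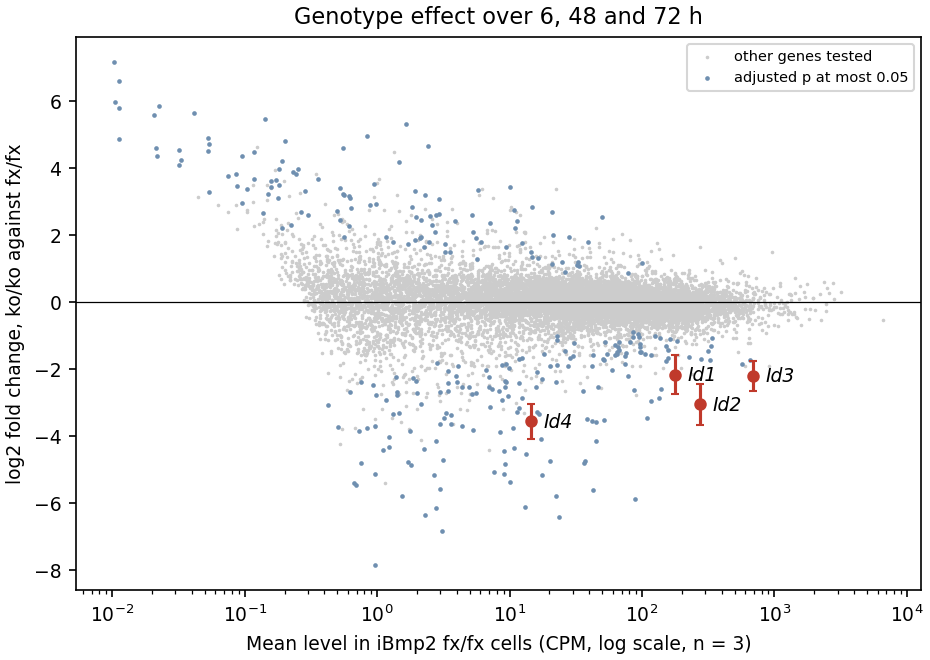
Log2 fold change of ko/ko against fx/fx cells (vertical axis, edgeR) against the mean fx/fx level in CPM (horizontal log axis) for the genes tested over 6 libraries, in blue where the adjusted p was at most 0.05 and in grey otherwise, with the Id genes in red and their standard errors as bars (the 4 genes at 0 in fx/fx are not drawn). Id1, Id2, Id3 and Id4 lie between -2.16 and -3.55, and Id2 and Id3 have no gene below them at their level or above it.

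Id2 and Id3 combined a high level with a large difference. Id3 ranked 108 of 13121 genes by mean fx/fx CPM, and none of the 107 genes above it had a log2 fold change as low. Id2 ranked 627 by level, and none of the 626 genes above it had one as low. Id1 ranked 1302, and 2 of the 1301 genes above it had one as low, these being Id2 and Id3. Id4 ranked 9005 by level, below the median gene, and 11 of the 9004 genes above it had a log2 fold change as low. By log2 fold change alone the ranks from the lowest were 60 for Id4, 86 for Id2, 176 for Id3 and 182 for Id1. These ranks are descriptions of the 6 libraries.

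The second variable of the design was culture time. In ko/ko cells the level at 72 h was 4.92 times that at 6 h for Id1, 4.52 times for Id2, 3.05 times for Id3 and 2.79 times for Id4. A ratio above 2 was reached by 10.2% of the genes tested. Most of this lay between 48 and 72 h, since the ko/ko ratio of 48 to 6 h was 1.46, 1.09, 1.07 and 1.02 for Id1 to Id4, and that of 72 to 48 h was 3.36, 4.13, 2.84 and 2.74. In fx/fx cells the ratio of 72 to 6 h was 1.49 for Id1, 1.11 for Id2, 0.788 for Id3 and 2.08 for Id4, and 6.37% of the genes tested were above 2. Each ratio compares single libraries and has no replicate.

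Over both genotypes, the slope per doubling of culture time was 0.32 for Id1, 0.23 for Id2, 0.11 for Id3 and 0.30 for Id4 on the log2 scale, with edgeR adjusted p-values of 0.259, 0.431, 0.653 and 0.219. No gene of the 13121 passed the adjusted limit for this slope in edgeR, and 2775 (21.1%) had an unadjusted p under 0.05. The ko/ko slope exceeded the fx/fx slope by 0.41 for Id1, 0.48 for Id2, 0.46 for Id3 and 0.030 for Id4, and the adjusted p of each difference was 1. No gene passed this test either, and 63 (0.480%) had an unadjusted p under 0.05. Each slope is a straight line on log2 hours through 3 times per genotype, whereas most of the ko/ko rise lay in the last interval. The slope difference therefore cannot decide whether the higher ko/ko levels at 72 h exceed the spread between libraries.

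At 24 h the library labelled ko/ko, whose label is in doubt, stood slightly above the fx/fx library, so the values there compare these libraries rather than the genotypes. Id1 stood at 136 CPM in the fx/fx library and 141 CPM in the library labelled ko/ko, Id2 at 226 and 270 CPM, Id3 at 564 and 775 CPM and Id4 at 6.28 and 7.37 CPM. The latter level was the higher for all 4 members, and it lay within the range of the other fx/fx libraries for Id2 and Id3 and just below that range for Id1 and Id4. The fx/fx library of 24 h was itself below the other fx/fx libraries for all 4 members. The ratio of the library labelled ko/ko to the fx/fx library was 1.03 for Id1 (95% counting interval 0.988 to 1.08), 1.19 for Id2 (1.16 to 1.24), 1.37 for Id3 (1.35 to 1.40) and 1.17 for Id4 (0.954 to 1.45). These intervals cover counting error between a pair of libraries only, and reads without molecular identifiers are not independent molecules.

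Other genes showed the same order at 24 h. Among the 171 genes called lower over the 6 libraries, 115 (67.3%) were higher in the library labelled ko/ko at 24 h, as were 49.5% of all genes tested. Of all genes tested, 46.4% were below 0 over the 6 libraries, and 21.1% were both below 0 there and higher at 24 h. A term for the difference between the labelled genotypes at 24 h against the other times, fitted in edgeR over all 8 libraries after the data had been seen, was 2.20 for Id1, 3.30 for Id2, 2.66 for Id3 and 3.79 for Id4 on the log2 scale. The adjusted p-values were 1, 0.856, 0.833 and 0.569. No gene of 13053 passed the adjusted limit, and 655 (5.02%) had an unadjusted p under 0.05. With both libraries of 24 h in the genotype fit, the log2 difference was -1.33 for Id1, -1.47 for Id2, -1.08 for Id3 and -2.13 for Id4, and no member passed (edgeR adjusted p from 0.483 to 0.555). Over 8 libraries none of the 4 members was without overlap between genotypes, against 1.96% of genes.

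**Figure D3:**
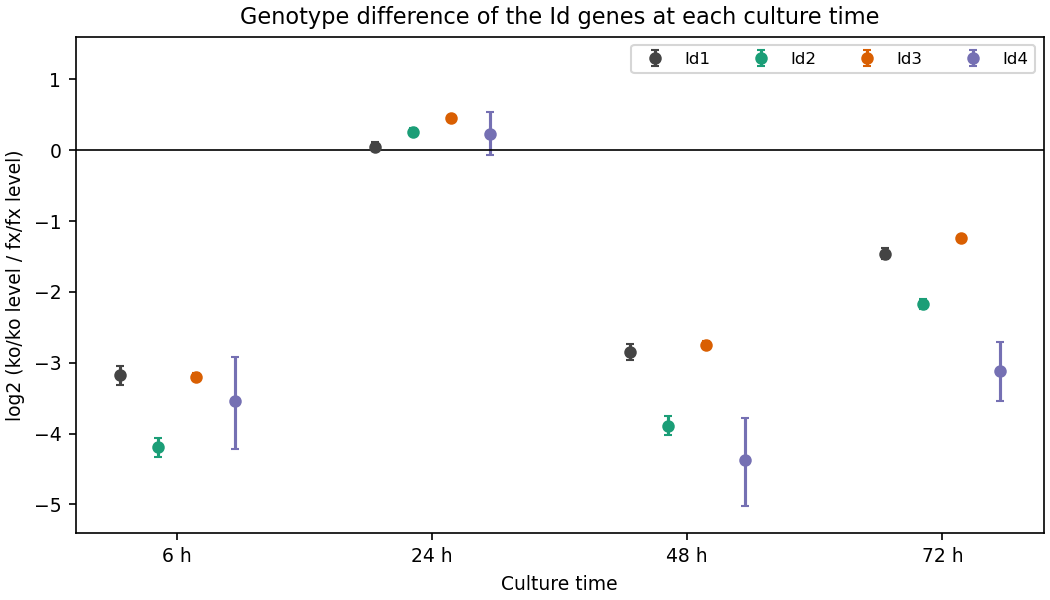
Log2 ratio of the ko/ko to the fx/fx level in CPM (vertical axis) at each culture time in hours for Id1 to Id4, 1 library per genotype and time, with bars for the 95% counting interval of each ratio. All points at 6, 48 and 72 h lie below 0, whereas those at 24 h lie between 0.047 and 0.46.

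The make-up of the family was next compared, as the share of each member in the summed RPKM of the 4 genes. The sum was 797, 699 and 794 RPKM at 6, 48 and 72 h in fx/fx cells and 75.2, 86.3 and 272 RPKM in ko/ko cells. Id3 made up 50.6 ± 5.88% of it in fx/fx and 60.5 ± 5.18% in ko/ko cells (SD, n = 3), and Id1 made up 19.99 ± 3.98% and 22.3 ± 3.43%, with overlap between the genotypes. Id2 made up 28.3 ± 1.77% in fx/fx and 16.8 ± 2.49% in ko/ko cells, without overlap. Within each of the 3 ko/ko libraries Id1 was above Id2 per length, and within each of the fx/fx libraries it was below. Id4 made up 1.15 ± 0.416% and 0.541 ± 0.0703%, also without overlap but with a narrow gap. The nearest Id4 shares were 0.667% in fx/fx and 0.611% in ko/ko cells, both at 6 h, the latter from 23 reads. At 24 h the fx/fx share of Id4 was 0.616%. In the library labelled ko/ko of 24 h the shares of Id1, Id2, Id3 and Id4 were 15.7, 27.6, 56.1 and 0.576%, with Id2 above Id1.

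The E proteins, the partners that Id proteins bind, were not called in either direction. Tcf3 (E2A) stood at 143 ± 6.37 CPM in fx/fx and 179 ± 15.9 CPM in ko/ko cells (log2 difference 0.34, edgeR adjusted p = 0.419). Its libraries ran from 135.9 to 147.7 CPM in fx/fx and from 165.6 to 196.7 CPM in ko/ko cells. With the replicate block in edgeR its adjusted p was 0.0514. Tcf4, which encodes the E protein E2-2, had a log2 difference of 0.12 (adjusted p = 0.85), and Tcf12 (HEB) had -0.22 (adjusted p = 0.73). The summed E protein level was 78.3, 82.8 and 86.6 RPKM in fx/fx and 85.0, 90.0 and 86.6 RPKM in ko/ko cells at 6, 48 and 72 h. The Id sum was 10.2, 8.44 and 9.16 times the E protein sum in fx/fx cells and 0.885, 0.959 and 3.15 times it in ko/ko cells. At 24 h the quotient was 7.25 in the fx/fx library and 10.3 in that labelled ko/ko. These are quotients of transcript levels, with no measure of protein.

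**Figure D4:**
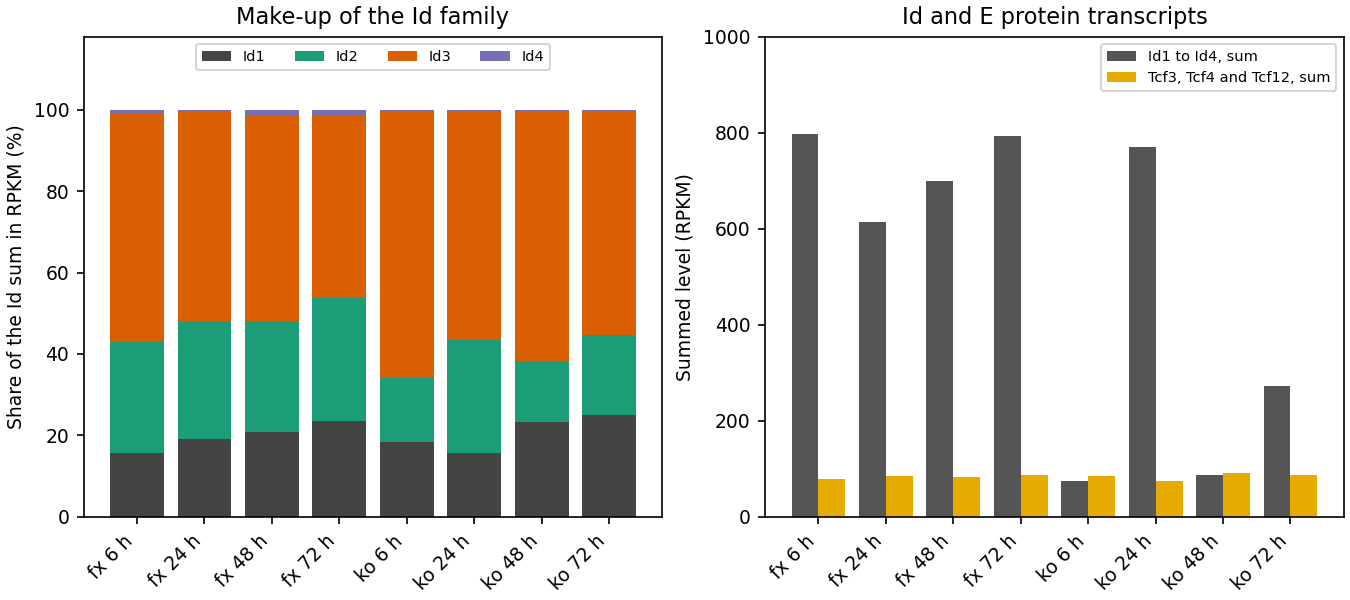
Left, share of each Id gene in the summed RPKM of the 4 Id genes (stacked bars, in percent, 1 bar per library), and right, the summed RPKM of the Id genes and of the E proteins Tcf3, Tcf4 and Tcf12 in each library (fx, fx/fx; ko, ko/ko). The Id sum is 699 to 797 RPKM in the fx/fx and 75.2 to 272 RPKM in the ko/ko libraries of 6, 48 and 72 h, whereas the E protein sum is 78.3 to 90.0 RPKM in these 6 libraries.

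Id4 shares bases with a long intergenic noncoding RNA on the opposite strand, A330033J07Rik (chromosome 13, 48139600 to 48357992, minus strand), and the sources used here do not state a strand setting for the counting. The shared exonic stretch of 171 bases is 10.3% of the exonic bases of Id4. A330033J07Rik had 45, 74 and 87 reads at 6, 48 and 72 h in fx/fx cells and 4, 6 and 4 reads in ko/ko cells, and 23 and 26 reads at 24 h. Its reads were 15.9, 14.3 and 16.0% of those of Id4 in fx/fx and 17.4, 25 and 7.55% in ko/ko cells, and 13.1% in both libraries of 24 h. Reads of Id4 spread evenly over its exons would put 29.2, 53.3 and 56.1 reads on the shared bases in fx/fx cells at 6, 48 and 72 h. In ko/ko cells an even spread would put 2.37, 2.47 and 5.46 reads there. At 24 h it would put 18.1 reads there in the fx/fx library and 20.5 in that labelled ko/ko. Reads of the 2 genes there cannot be told apart without strand. The study also measured A330033J07Rik (ENSMUSG00000086888.1) by RT-qPCR. The study reports a higher level in ko/ko cells by that method, opposite to its RNA-seq.

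The upstream pathway was described from lists of its ligands, receptors and antagonists. Of 14 BMP ligand genes, 3 passed the filter on low counts and none was called in either direction in edgeR or in DESeq2. Bmp4, the most abundant ligand, had a log2 difference of -0.47 (edgeR adjusted p = 0.694). Of 11 receptor and Smad transducer genes, all were tested and 1 was called (2.22% of all genes tested were). This was Smad9, one of the receptor-regulated Smads, which fell from 110 ± 9.5 CPM in fx/fx to 9.96 ± 3.796 CPM in ko/ko cells, by 3.45 on the log2 scale (SE 0.292, adjusted p = 0.00534). At 24 h Smad9 stood at 96.0 CPM in the fx/fx library and 112.5 CPM in the library labelled ko/ko. The type I receptor Bmpr1a, with the highest mean CPM of the list, had a log2 difference of -0.22 (adjusted p = 0.665). Among these 11 genes 4 passed the study's limit, all lower (4.04% of all genes), and 6 passed with the replicate block, all lower (11.4% of all genes). The count of 1 became 5 in DESeq2, 0 over all 8 libraries, 2 without the ko/ko library of 72 h and 0 without that of 48 h, where the call of Smad9 was lost. These 4 fits called 873, 0, 383 and 9 genes in all, against 291 in the main fit. The list median was -0.61, against 0.034 over all genes tested. Of 11 BMP antagonists, 9 were tested and none was called in edgeR, with 3 lower by the study's limit (4.04% of all genes) and 6 lower and 1 higher with the block (11.4 and 11.3% of all genes). DESeq2 called 3 (873 genes in all), limma called 1 (of 274), edgeR with no filter called 1 (of 336), and edgeR without the ko/ko library of 72 h called 2 (of 383). Grem1, the secreted antagonist with the highest mean level, had a log2 difference of -1.91 (adjusted p = 0.21), and it passed with the block (-1.97, adjusted p = 0.000218).

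Other target genes of BMP and Smad were mostly below 0 with the Id genes. Of 22 such genes 21 were tested, 20 had a log2 difference below 0 (46.4% of all genes tested did), and the list median was -1.14. Over the 6 libraries 5 were called, all lower, against 1.30% of all genes. By the study's limit 12 were lower and 1 was higher (3.31% of all genes were higher), and with the replicate block 17 were lower and 1 was higher (11.3% of all genes were higher). Hey1, a repressor of the Hairy family, fell by 6.42 (SE 0.525, adjusted p = 0.00502), from 23.6 ± 6.11 to 0.27 ± 0.167 CPM. Atoh8, a helix-loop-helix transcription factor, fell by 2.95 (SE 0.428, adjusted p = 0.021), and Smad6, an inhibitory Smad that feeds back on the pathway, fell by 2.84 (SE 0.263, adjusted p = 0.0065). The homeobox gene Dlx3 was called as well, at 3.10 ± 1.72 CPM in fx/fx cells and with 1, 1 or 0 reads in the ko/ko libraries of 6, 48 and 72 h. The fifth call was Klf10, a Krüppel-like factor, which fell by 1.63 (adjusted p = 0.0243) and is named outside the rule for named genes, after its value was seen. Junb, an AP-1 subunit and the member with the highest mean level, had a log2 difference of -1.14 (adjusted p = 0.199), and it passed with the block (-1.21, adjusted p = 0.00136). At 24 h 16 of the 21 tested genes were higher in the library labelled ko/ko, as were 49.5% of all genes tested. The count of 5 became 9 without the ko/ko library of 72 h, 2 without that of 6 h and 1 without either library of 48 h. Of all genes, 383 were called without the first and 90 without the second. Without a library of 48 h it was 14 (fx/fx) or 9 (ko/ko), against 291 in the main fit. The count for this list was 14 in DESeq2, which called 873 genes in all, and 0 over all 8 libraries, with or without the block.

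**Figure D5:**
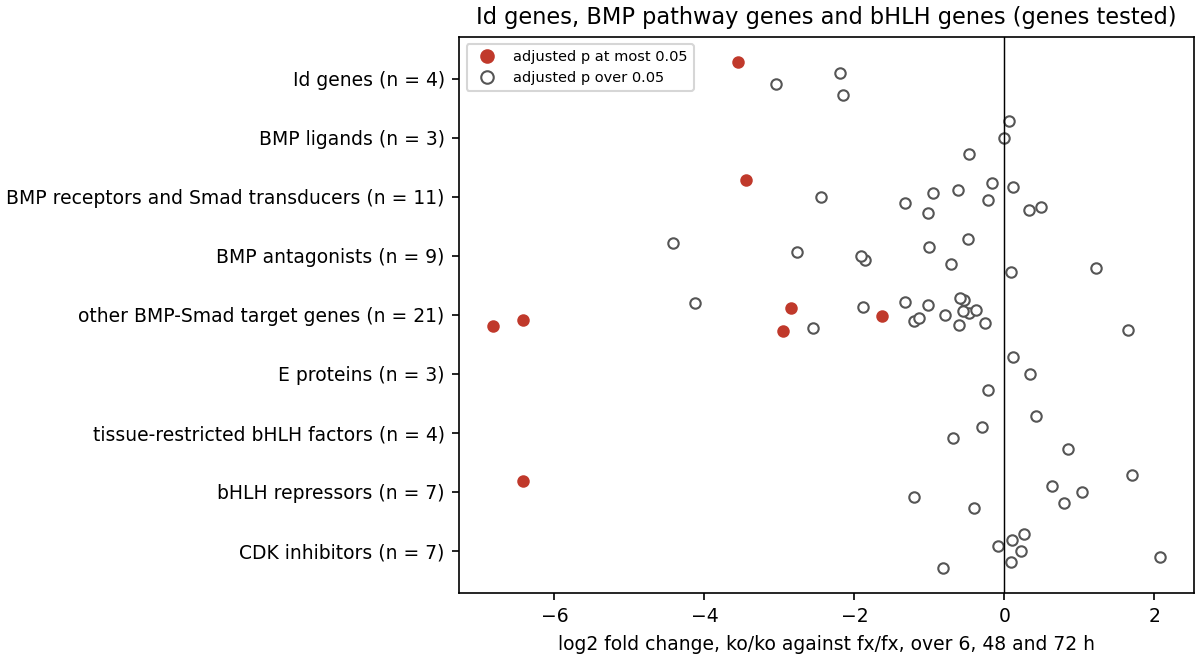
Log2 fold change of ko/ko against fx/fx cells (horizontal axis, edgeR, 6 libraries) for the tested genes of each list, 1 point per gene, filled where the adjusted p was at most 0.05, with the vertical offset within a list carrying no value. Of the other BMP-Smad targets 20 of 21 lie below 0, and the E proteins lie between -0.22 and 0.34.

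The genes most like each Id gene were found by Pearson's r of log2 CPM over the 8 libraries among the 13121 genes tested. Id2 and Id3 were each other's near neighbours, at r = 0.994, with Id3 second for Id2 and Id2 first for Id3. The closest to Id1 were Smad7 (0.99), an inhibitory Smad, Dlx2 (0.99), a homeobox gene, and Ext1 (0.986), which encodes an enzyme of heparan sulfate synthesis. The closest to Id2 were Hoxd8 (0.994), Id3 and Dlx2 (0.993), and the closest to Id3 were Id2, Hoxd8 (0.993) and Smad7 (0.989). Id4 had other neighbours, with Pfn2 (0.994), which encodes an actin-binding profilin, Lgr6 (0.992), a receptor for R-spondins, and Unc5b (0.99), a netrin receptor, at the head of its list, and Id1, Id2 and Id3 at r = 0.959, 0.959 and 0.937. All 8 points share the split between 3 low ko/ko libraries and the other 5, and the values of r are descriptions.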

How the data were processed

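RNA of 8 libraries was analysed as the authors deposited it, as counts of reads per gene symbol and, for A330033J07Rik alone, per noncoding gene. Per the labels, 50-base single-end reads were processed with CASAVA 1.8.2, TopHat2 2.0.8b (mm9) and HTSeq, whose version is not given in the sources used here. Reads aligning to several places (41.3 to 49.6% of all HTSeq records), without a feature (8.22 to 12.5%) or ambiguous (0.439 to 0.532%) stayed out. The study's methods speak of paired reads, so whether a count is a read or a pair is not settled. The series' design text gives 8 h where the labels give 6 h. No library was identical to another.

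Genes passing edgeR's expression filter (13121) were tested with edgeR 4.0.16 (R 4.3.3; quasi-likelihood, TMM, Benjamini-Hochberg adjustment, limit 0.05) for genotype, for a slope on log2 hours and for their interaction, over the libraries of 6, 48 and 72 h. DESeq2 1.42.0, limma 3.58.1 on log2(RPKM + 0.1), other scalings, filters, library sets and omissions were alternatives, and the term for 24 h was added after the data were seen. Same-time libraries of the genotypes correlated in their deviations from the group means (0.713, 0.536 and 0.841 at 6, 48 and 72 h), so culture time was taken to pair them. Exon lengths came from GENCODE M1, which held 95.7% of the symbols.

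The members and lists were chosen with earlier results of these data known. Named from each list were up to 4 called genes by size of change and the gene with the highest mean level, and for each Id gene the 3 most alike. Intervals are at 95%.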

Additional observations from a re-analysis of the deposited data

Results flagged for a closer look

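The difference between the libraries labelled ko/ko and fx/fx at 24 h went, for each Id gene, against that at 6, 48 and 72 h. The log2 difference at 24 h was 0.047 for Id1, 0.26 for Id2, 0.46 for Id3 and 0.23 for Id4, whereas it was negative at each of the other 3 times for each gene. In edgeR, a term for this contrast was 2.20 (SE 1.16), 3.30 (SE 1.21), 2.66 (SE 0.939) and 3.79 (SE 1.01) for Id1 to Id4, with adjusted p-values from 0.569 to 1. Each value at 24 h rests on 1 library per labelled genotype, and the label of the ko/ko one is in doubt, since its expression lay nearer to the fx/fx mean at nearly all genes called between genotypes.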

How the results depend on the processing

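The genotype difference of Id1, Id2, Id3 and Id4 was below 0 under all 16 alternatives of each, but its side of the adjusted limit varied. Id1 passed with the replicate block over 6 libraries (-2.47) and in DESeq2 (-2.15). Id2 and Id3 passed with the block (-3.40 and -2.39), in DESeq2 (-3.03 and -2.19), in limma (-3.40 and -2.38), with no filter (-3.05 and -2.20) and over 7 libraries without the library labelled ko/ko of 24 h (-2.97 and -2.12). Id4 missed the limit over all 8 libraries (-2.13) and with the block over 8 libraries (-2.72), and its adjusted p ran from 4.38e-10 to 0.483. Leaving out 1 library gave -3.16 to -1.78 for Id1, -4.12 to -2.70 for Id2, -2.93 to -1.93 for Id3 and -4.21 to -3.31 for Id4. The 291 genes called (171 lower) became 0 (0 lower) over all 8 libraries in edgeR (1336 at an unadjusted p under 0.05), 44 (33) with the block over these, 483 (283) over 7 libraries, 2981 (1495) with the block over 6, 873 (514) in DESeq2, 145 (92) with at least 10 counts in every library, and 9 to 383 (6 to 192) without 1 library.

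For the slope over time, no alternative brought an Id gene past the limit. The slope of Id3 was -0.0040 over all 8 libraries, and 0 genes called became 1 over these, 4 with hours on a linear scale and 0 to 196 without 1 library, the highest without the ko/ko library of 48 h. Without 1 library the slopes ran from 0.15 to 0.54 for Id1, 0.019 to 0.49 for Id2, -0.060 to 0.35 for Id3 and 0.20 to 0.34 for Id4. The difference between slopes was -0.13 for Id4 over all 8 libraries, and without 1 library it ran from -0.069 to 2.83 for Id1, -0.053 to 3.46 for Id2, 0.15 to 2.65 for Id3 and -0.27 to 2.15 for Id4, with 0 to 1 genes called. The causes were not tested. At 23 to 53 reads in ko/ko cells, counting error limits Id4 most.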

Other observations

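Other helix-loop-helix genes and inhibitors of cyclin-dependent kinases, which are known to lie downstream of E proteins or beside Id proteins in other cells, showed no common direction. Of 42 tissue-restricted helix-loop-helix factors, the other partners of E proteins, 30 had at most 3 counts in every library and 4 were tested. None of these 4 was called in edgeR or in DESeq2. Twist1, a mesenchymal factor with the highest mean CPM of the list, had a log2 difference of -0.30 (edgeR adjusted p = 0.484). Twist2 had 0.42 (adjusted p = 0.273, and 0.0269 with the replicate block). Of 11 repressors of the Hes, Hey and Bhlhe families 7 were tested and Hey1 was called, lower in ko/ko cells (1.30% of all genes were). DESeq2 called 2 of them (873 genes in all), as did edgeR without the ko/ko library of 72 h (383 in all). None was called over all 8 libraries, where 0 genes were called in all. By the study's limit 2 were lower and 2 were higher, against 4.04 and 3.31% of all genes, and with the replicate block 3 were lower and 2 were higher, against 11.4 and 11.3%. Bhlhe40, a repressor of the circadian system and the most abundant of these, had -0.41 (adjusted p = 0.57, and 0.0424 with the block).

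All 7 CDK inhibitor genes were tested and none was called in edgeR or in DESeq2, and by the study's limit 1 was higher (3.31% of all genes). Cdkn2a, the locus of p16 and p19Arf and the most abundant of them, had a log2 difference of 0.23 (edgeR adjusted p = 0.848). With the replicate block 1 was called lower and 1 higher, against 11.4 and 11.3% of all genes.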
